A study of Mus musculus with 6 samples.

Results

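The Ighv11 family of mouse immunoglobulin heavy-chain V genes was represented by Ighv11-2 and Ighv11-1. Its sequences were taken as every deposited sequence whose first called V gene, with the allele removed, was a member of the family, and there were 1333 of them among 228609 sequences in 6 libraries. Ighv11-2 accounted for 969 and Ighv11-1 for 364. In the RefSeq annotation of GRCm38.p6 both are V segments on chromosome 12. Ighv11-1 lies at 113981879 to 113982174, between Ighv3-1 and Ighv14-2, and Ighv11-2 lies at 114048241 to 114048704, between Ighv3-2 and Ighv14-3, with 66.067 kb between them.

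The libraries were made by VDJ-seq, a method that reads rearranged heavy-chain genes from genomic DNA, so that a sequence stands for a piece of DNA and not for an RNA level. The DNA came from the spleens of C57BL/6 mice aged 12 weeks, and B cells had been enriched by magnetic depletion of the other cells. A series of 4 libraries tested the amount of DNA (500 ng, 1 µg, 2.5 µg and 5 µg), and a pair named Q5_vent and Q5_Q5 tested combinations of DNA polymerases. The DNA amount of that pair is not stated here, and neither is whether any libraries share an animal or a DNA preparation. All 6 libraries share the strain, the age and the enrichment, and each group holds 1 library. Spreads and p-values over libraries therefore measure only how these libraries differ, which may be technical. No gate separated B-1 cells from other B cells, and the files hold no cell-surface marker, so the cell type behind a sequence was not tested.

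A heavy-chain gene is assembled by joining a D segment to a J segment and then a V segment to the D-J piece. Exonucleases trim the ends, and terminal deoxynucleotidyl transferase adds non-templated N bases, so that the third complementarity-determining region (CDR3), which spans the joins, differs between cells. A productive join keeps the reading frame without a stop codon, while an out-of-frame join makes no heavy chain and can be carried along on the other allele of the same B cell. B-1 cells are innate-like B cells, many of which arise around birth when that transferase is low, and a known set of them binds phosphatidylcholine with heavy chains built from Ighv11-2 or Ighv12-3 and a restricted CDR3.

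The CDR3 joins below are the main joins of the 10 most copied productive Ighv11-2 amino acid forms. They are shown because they carry most of the results: they differ from each other mainly in a few central bases. Each is written 5′ to 3′ on the coding strand from the first CDR3 base after the conserved cysteine. Capitals mark the bases aligned to a D segment. The lower-case start is V sequence and the lower-case end is Ighj1 sequence, apart from any base added between them.
MRYSNYWYFDV: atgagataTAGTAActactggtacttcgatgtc
MRYGGYWYFDV: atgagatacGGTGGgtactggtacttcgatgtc
MRYGNYWYFDV: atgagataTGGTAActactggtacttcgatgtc
MRYSSYWYFDV: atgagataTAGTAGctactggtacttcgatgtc
MRYNSNYWYFDV: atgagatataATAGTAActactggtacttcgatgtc
MRYGSSYWYFDV: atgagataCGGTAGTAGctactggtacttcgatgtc
MRYDSNYWYFDV: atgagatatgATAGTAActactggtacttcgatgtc
MRYNSNHWYFDV: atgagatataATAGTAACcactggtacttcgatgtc
ILYGSSYWYFDV: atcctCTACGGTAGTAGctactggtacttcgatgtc
MRYGNYYWYFDV: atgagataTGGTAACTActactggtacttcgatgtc

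All 10 forms used Ighj1, 4 had 11 residues and 6 had 12, and 9 began with MRY. The start atgagata is the untrimmed V end of both family members: 514 of 535 Ighv11-2 sequences and 130 of 134 Ighv11-1 sequences that kept 8 V bases in the CDR3 had it. The run ctactggtacttcgatgtc is the Ighj1 end and was present in 230 of 235 Ighv11-2 sequences with 19 Ighj1 bases. In the most copied join, V, D and J meet with no base between them, and 6 D bases form the centre. In the main joins of MRYSNYWYFDV, MRYGNYWYFDV and MRYSSYWYFDV, the V and J parts were the same and only the 6 D bases changed. The ILYGSSYWYFDV join kept only 2 V bases and 12 D bases.

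Ighv11-2 was a small and steady part of the repertoire. Along the input series from 500 ng to 5 µg its shares were 0.425%, 0.487%, 0.382% and 0.442%, and the polymerase pair had 0.385% (Q5_vent) and 0.426% (Q5_Q5). Ighv11-1 made up 0.172%, 0.129%, 0.161% and 0.160% along the input series, 0.159% in Q5_vent and 0.173% in Q5_Q5. The libraries held 8704 to 112320 sequences, so that these shares rest on 37 to 496 Ighv11-2 sequences and 15 to 180 Ighv11-1 sequences. The share of Ighv11-2 at 5 µg over that at 500 ng was 1.04 (95% Katz interval 0.744 to 1.45), and that of Ighv11-1 was 0.930 (0.549 to 1.57). Of 107 V genes set side by side in this way, 3.74% had an interval that excluded 1. For Q5_Q5 over Q5_vent the ratio was 1.11 (0.793 to 1.54) for Ighv11-2 and 1.09 (0.646 to 1.83) for Ighv11-1, and 3.57% of 84 V genes had an interval that excluded 1. These intervals cover counting error only, and no p-value is given because each group has 1 library. The reading classes of Ighv11-2 went opposite ways in the polymerase pair. Among productive sequences the ratio was 0.531 (0.291 to 0.969; 15 against 36 sequences), and among out-of-frame sequences it was 1.65 (1.06 to 2.56; 43 against 35). The productive sequences came from 11 distinct joins in Q5_Q5 and 19 in Q5_vent. Their interval treats every copy as independent and may be too narrow. The share of V genes given above is for all sequences and was not computed within a class.

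Both genes were carried mostly on joins that cannot make a heavy chain, and Ighv11-1 almost wholly so. Of the 969 Ighv11-2 sequences, 373 were productive (38.5%, Wilson 95% interval 35.5 to 41.6), 500 were out of frame (51.6%) and 96 were in frame but not productive (9.91%). Every copy of a join was counted here, and copies were most frequent in the productive class. The 3 classes held 131, 485 and 95 distinct joins in the same order. Of the 364 Ighv11-1 sequences, 7 were productive (1.92%, 0.935 to 3.92), 282 were out of frame (77.5%) and 75 were in frame but not productive (20.6%). Over all other V genes 73.5% were productive.

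The productive share of Ighv11-2 was 40.5%, 39.8%, 42.5% and 36.9% along the input series, with 48.0% for Q5_vent and 23.4% for Q5_Q5. The other V genes lay between 72.9% and 74.3% in the same libraries, so that the groups did not overlap, and Q5_Q5 was the lowest Ighv11-2 library. The mean difference was -34.9 ± 8.73 percentage points (SD over 6 libraries; exact two-sided sign-flip permutation test, p = 0.03125, 0.0375 after Benjamini-Hochberg adjustment over the 12 contrasts tested). The smallest p that 6 libraries can give is 0.03125. With 1 count per join in each library, the mean difference of Ighv11-2 was -46.3 points (adjusted p = 0.046875, same exact test). Ighv11-1 had 0, 0, 3 and 3 productive sequences along the input series, 1 in Q5_vent and 0 in Q5_Q5. The 3 libraries without any held 15, 22 and 26 Ighv11-1 sequences, and a count of 0 (3 counts of the total) leaves room for 20%, 13.6% and 11.5%. Ighv11-1 had a mean difference from the other V genes of -72.1 ± 1.81 points (6 libraries, the same exact test, p = 0.03125, adjusted 0.0375). Of 115 V genes with at least 100 sequences and present in every library, 43.5% were lower than the rest in all 6 libraries, so that being lower was common among V genes.

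**Figure D1:**
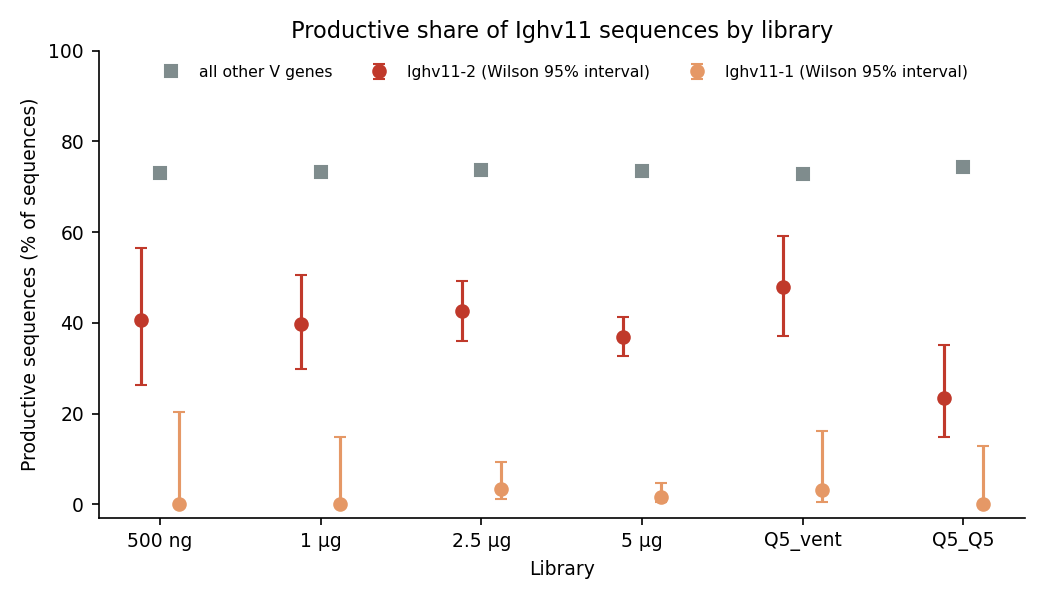
Productive sequences as a percentage of all sequences of Ighv11-2, of Ighv11-1 and of all other V genes, for each of the 6 libraries (x axis). Bars on the Ighv11 points are Wilson 95% intervals; Ighv11-2 lies between 23.4% and 48.0%, Ighv11-1 between 0% and 3.33%, and the other V genes between 72.9% and 74.3%.

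Ranked by productive share from the lowest of those 115 genes, Ighv11-1 was number 3, after Ighv3-2 (0.143%) and Ighv1-27 (0.285%) and before Ighv5-2 (4.86%) and Ighv1-23 (5.48%). Ighv11-2 was number 30, and Ighv12-3, the other phosphatidylcholine-binding gene, was number 26 with 24.5%, against a median over genes of 76.1%. These ranks, and the ratios that follow, count every copy of a join. For each out-of-frame sequence there were 0.746 productive ones with Ighv11-2, 0.0248 with Ighv11-1, 0.390 with Ighv12-3 and 3.33 with the other V genes. Ighv11-2 made up 0.792% to 1.30% of the out-of-frame sequences of a library but 0.135% to 0.265% of the productive ones, and these ranges did not overlap. How many other V genes have such a gap was not counted, and a low productive share was common among them.

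The in-frame sequences separated the members further. Of in-frame sequences, 79.5% were productive with Ighv11-2 (373 of 469), 8.54% with Ighv11-1 (7 of 82), 66.0% with Ighv12-3 and 94.3% with the other V genes. The V end shared by both genes ends in TA, so that in an untrimmed join the next base completes the third codon, which then reads as tyrosine (TAC or TAT) or as a stop (TAA or TAG). These in-frame sequences, with the third codon in capitals, keep the whole V end and show such a stop, 1 for each gene.
Ighv11-1 with Ighj3 in the 5 µg library: atgagaTAAcgtaactactcctttgcttac
Ighv11-2 with Ighj3 in the 2.5 µg library: atgagaTAGggggacgggtttgcttac

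A stop codon stood within the CDR3 of 93 of the 96 in-frame, not productive Ighv11-2 sequences and of all 75 such Ighv11-1 sequences. TAA or TAG was the third codon in 34 and 32 of them, and TGA at that place was not counted. Tyrosine was the third codon in 309 of the 373 productive Ighv11-2 sequences (82.8%) and in 93 of the 500 out-of-frame ones (18.6%). TAA or TAG stood there in 105 of the out-of-frame ones. A productive sequence cannot hold a stop, so that part of this difference follows from how the classes are defined. The V end was untrimmed in 79.4% of productive and 38.2% of out-of-frame Ighv11-2 sequences.

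The 7 productive Ighv11-1 sequences had 7 different CDR3 forms, and none was seen more than once. They came from the 2.5 µg, 5 µg and Q5_vent libraries. Ighj1 was used by 2, Ighj2 by 3, Ighj3 by 1 and Ighj4 by 1, and they had 5.57 bases between segments on average. The call of 1 of the 7 also named Ighv11-2; 73 Ighv11-1 calls did so in all, and their median aligned V length was 75 bases, against 184 for calls of a single gene. Over 291 Ighv11-1 calls of a single gene, 6 were productive. The joins below are shown, with D bases in capitals, for comparison with the Ighv11-2 forms. The first begins with the untrimmed V end atgagata; the second does not, but ends with the Ighj1 run of those forms.
MRYDYDEAY, Ighj3, 5 µg: atgagataTGATTACGACgaggcttac
MRSYYPYWYFDV, Ighj1, Q5_vent: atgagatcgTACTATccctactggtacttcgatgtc

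Ighj1, the J segment nearest to the D segments, was the partner of most productive Ighv11-2 sequences but of a minority of out-of-frame ones. It was used by 321 of the 373 productive sequences (86.1%), with Ighj2 in 33 (8.85%), Ighj3 in 5 (1.34%) and Ighj4 in 14 (3.75%). Out-of-frame Ighv11-2 sequences spread over the segments, with 18.6% Ighj1, 27.2% Ighj2, 30% Ighj3 and 24.2% Ighj4. Ighv11-1, nearly all not productive, had 15.1%, 30.8%, 28.0% and 26.1%.

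By library, Ighj1 was used in 86.7%, 87.9%, 83.5% and 85.2% of productive Ighv11-2 sequences along the input series, in 94.4% in Q5_vent and in 86.7% in Q5_Q5. Among out-of-frame Ighv11-2 sequences the values were 15.0%, 10.8%, 18.2% and 19.5%, then 17.1% and 23.3%. Every productive value lay above every out-of-frame value, and the mean difference was +70.1 ± 6.16 points (SD, 6 libraries; exact sign-flip permutation test, p = 0.03125, adjusted 0.0375). The number of other V genes with such a gap between the classes was not counted. Productive sequences of other V genes averaged 19.1% ± 0.725 Ighj1 over the 6 libraries, and Ighv11-2 was higher by 68.3 ± 4.33 points (higher in 6 of 6, the same exact test, p = 0.03125, adjusted 0.0375). Of 96 V genes with at least 100 productive sequences, 15.6% were higher than the rest in all 6 libraries. Out-of-frame sequences of Ighv11-2 differed from those of other V genes by +1.27 ± 4.11 points, higher in 4 of 6 libraries (exact test, p = 0.5). That difference lay within the spread between libraries.

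**Figure D2:**
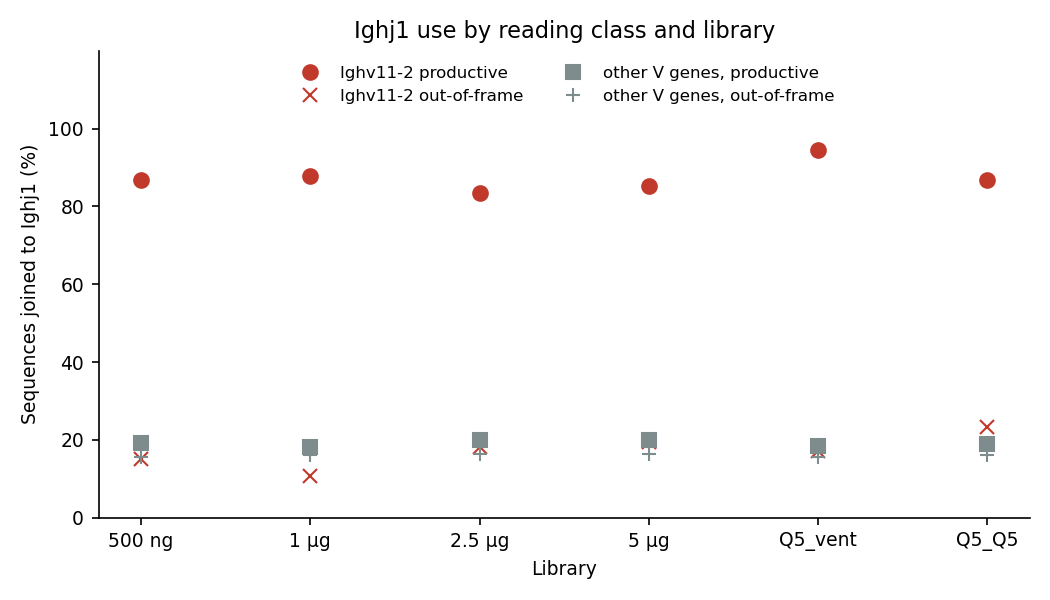
Sequences joined to Ighj1 (%) in each library, for productive and out-of-frame sequences of Ighv11-2 and of all other V genes. Productive Ighv11-2 lies between 83.5% and 94.4%, and its out-of-frame sequences lie between 10.8% and 23.3%, near the other V genes.

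Ighv11-2 had the highest Ighj1 share of the 96 genes. Ighv12-3 was next (49.9%), followed by Ighv15-2 (45.7%), Ighv7-1 (36.4%) and Ighv7-4 (35.8%), and the median over genes was 19.2%. The J profile most like that of productive Ighv11-2 over the J segments was that of Ighv12-3, at a Euclidean distance of 45.3 percentage points, then Ighv15-2 (46.7) and Ighv7-4 (58.6). Among 131 distinct productive Ighv11-2 joins, each counted 1 time, 79 used Ighj1 (60.3%), against 19.4% of the distinct productive joins of other V genes. Out-of-frame Ighv11-2 joins counted the same way had 19.0%.

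The D partner was less restricted than the J partner at the level of families. Segments of the DSP2 family were called in 207 of the 373 productive Ighv11-2 sequences (55.5%) and DFL16 segments in 133 (35.7%), while DQ52 and DST4 were called in 9 each and 15 had no D call. Out-of-frame Ighv11-2 sequences had 46.0% DSP2, 39.2% DFL16, 5.00% DQ52 and 4.60% DST4, and out-of-frame Ighv11-1 sequences had 44.0% DSP2 and 40.1% DFL16. In productive Ighv12-3 sequences DQ52 was called in 37.0%, against 2.41% in productive Ighv11-2.

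Averaged over libraries, DSP2 was called in 50.9% ± 6.83 of productive and 46.6% ± 4.67 of out-of-frame Ighv11-2 sequences, a difference of +4.28 ± 8.20 points that was higher in 5 of 6 libraries and did not pass the test (exact sign-flip permutation test, p = 0.1875, adjusted 0.205). Against productive sequences of other V genes, DSP2 was higher by 11.4 ± 6.83 points in 6 of 6 libraries (same exact test, p = 0.03125, adjusted 0.0375). How many other V genes had more DSP2 than the rest in all 6 libraries was not counted. Both DSP2 differences rested on the most copied form: without it they were -10.7 points (adjusted p = 0.0375, same exact permutation test) and -3.55 points (adjusted p = 0.531). That form was chosen from these data, its main join has a DSP2 call, and only productive sequences lost it. A fall was therefore fixed beforehand, and these p-values do not show that DSP2 was low. With 1 count per join in each library they were -3.28 (adjusted p = 0.594) and 3.91 (adjusted p = 0.409) by that exact test.

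At the level of single D genes, Ighd2-5 was the first D call in 141 productive Ighv11-2 sequences (37.8%), in 46 out-of-frame ones (9.20%) and in 5.87% of productive sequences of other V genes. Counted 1 time per distinct join, Ighd2-5 was called in 16 of 131 productive Ighv11-2 joins (12.2%), against 9.48% of out-of-frame ones. Ighd1-1 was called in 127 productive (34.0%) and 187 out-of-frame (37.4%) Ighv11-2 sequences, and Ighd2-4 in 3.75% and 13.4%. The 6 D bases of the most copied join matched Ighd2-5 and Ighd2-6 alike, so that the D gene of that join is uncertain. These D gene values were picked after they were seen and were not tested.

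Few bases lay between the segments of productive Ighv11-2 sequences, with every copy of a join counted. The count used here is the sum of the unaligned bases between V and D and between D and J, which are N bases or P bases (short palindromic additions at uncut ends). The mean per library was 1.93, 2.58, 2.42 and 2.58 along the input series, 2.14 in Q5_vent and 2.93 in Q5_Q5 for productive Ighv11-2. For its out-of-frame sequences the means were 8.25, 8.81, 6.90 and 7.64, then 7.09 and 9.12. The groups did not overlap, and the mean difference was -5.54 ± 0.801 bases (SD, 6 libraries; exact sign-flip permutation test, p = 0.03125, adjusted 0.0375). Other V genes with such a gap between the classes were not counted. Productive sequences of other V genes averaged 7.61 ± 0.0294 bases, and Ighv11-2 was lower by 5.18 bases on average (difference -5.18 ± 0.374, lower in 6 of 6 libraries, same exact test, p = 0.03125, adjusted 0.0375). Of the 96 V genes, 26% were lower than the rest in all 6 libraries. Over the 131 distinct productive Ighv11-2 joins, each counted 1 time, the mean was higher, at 5.28 bases. Out-of-frame Ighv11-2 joins counted the same way had 7.71, and productive joins of other V genes had 7.63.

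Joins with no base at all between segments made up the largest class of productive Ighv11-2 sequences. They were 6 of 15, 14 of 33, 42 of 91 and 81 of 183 sequences along the input series and 19 of 36 and 7 of 15 in Q5_vent and Q5_Q5, together 169 (45.3%, Wilson 95% interval 40.3 to 50.4). That interval treats every copy of a join as independent and may be too narrow. In out-of-frame Ighv11-2 sequences there were 10 (2.00%), and in out-of-frame Ighv11-1 sequences the share was 2.13%. Averaged over libraries the productive share was 45.4% ± 4.38, against 1.27% ± 0.0586 for other V genes, a difference of +44.1 ± 4.38 points (higher in 6 of 6, exact permutation test, p = 0.03125, adjusted 0.0375). V genes with a higher share than the rest in all 6 libraries were not counted for this measure. With 1 count per join in each library the difference was 25.4 points (adjusted p = 0.046875), and without the most copied form it was 28.0 points (adjusted p = 0.0375, both by the same exact test). Among distinct productive joins over all libraries, 15 of 131 Ighv11-2 joins (11.5%) had no base between segments, against 1.11% with other V genes. Productive Ighv12-3 sequences also often had none, in 164 of 465 (35.3%).

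**Figure D3:**
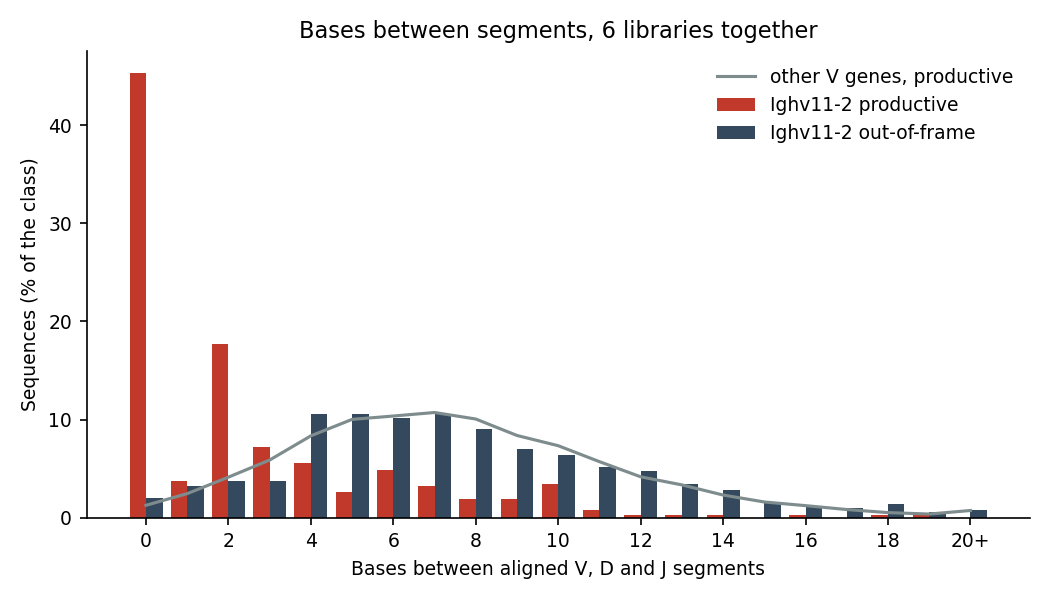
Unaligned bases between the V, D and J segments (x axis, 20 or more in the last class) against the percentage of sequences in each class, all 6 libraries together, for productive and out-of-frame Ighv11-2 sequences (bars) and productive sequences of other V genes (line). The productive Ighv11-2 bars stand at 45.3% for 0 bases, while its out-of-frame bars follow the line.

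Both junctions were short. Between V and D the mean was 1.60 bases in productive and 4.27 in out-of-frame Ighv11-2 sequences, and between D and J it was 0.919 and 3.57. Out-of-frame Ighv11-1 sequences had 7.64 bases in total, near the 7.69 of out-of-frame Ighv11-2. Within productive Ighv11-2 the sequences with Ighj1 carried the short junctions: 167 of 321 had no base between segments (52.0%), with a mean of 1.79, whereas 2 of the 52 sequences with another J segment had none (3.85%), with a mean of 6.75. Ighv11-2 had the lowest mean of the 96 V genes (2.49), followed by Ighv12-3 (2.62), Ighv3-5 (5.48), Ighv7-1 (5.57) and Ighv7-4 (5.77), against a median over genes of 7.57.

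Productive Ighv11-2 CDR3s were shorter than those of other V genes, and most had 1 of 2 lengths, with every copy of a join counted. The mean was 34.5 ± 0.926 bases over libraries, against 37.9 ± 0.0545, a difference of -3.39 ± 0.885 (lower in 6 of 6 libraries, exact permutation test, p = 0.03125, adjusted 0.0375). How many other V genes had shorter CDR3s in all 6 libraries was not counted. With 1 count per join in each library the difference was -2.61 bases (adjusted p = 0.046875, same exact test). A CDR3 of 33 bases was found in 214 and one of 36 bases in 94 of the 373 sequences, together 82.6%, against 32.6% for other V genes. MRY was the start of 294 (78.8%). WYFDV, which the Ighj1 segment encodes, was the end of 306 (82.0%), against 13.1% of productive sequences of other V genes and 66.9% of those of other V genes that used Ighj1. Among Ighv11-2 sequences with Ighj1 it was the end of 95.3%. Of the 131 distinct productive Ighv11-2 joins, each counted 1 time, 65 ended in WYFDV (49.6%), against 12.9% with other V genes. The MRY start and the 2 lengths were counted per sequence only.

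The same CDR3 forms returned many times and in many libraries. The 373 productive Ighv11-2 sequences held 123 amino acid forms from 131 distinct joins, or 2.85 sequences per join, while the 500 out-of-frame sequences held 485 joins, or 1.03 per join. Forms with 2 or more copies numbered 17 and held 267 sequences (71.6%), and 106 forms were seen 1 time. The 10 most copied forms held 243 sequences (65.1%). For these 10, the same form was found 0 times among 167075 productive sequences of other V genes, which allows up to 0.00180% (3 counts). Of the 10, 9 begin with MRY, whose first bases come from the V end of the Ighv11 genes. The part of that V end in the count of 0 was not tested.

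MRYSNYWYFDV was the most copied form, with 2, 6, 25 and 51 copies along the input series, 9 in Q5_vent and 4 in Q5_Q5. Its 97 copies were 26.0% of productive Ighv11-2 sequences and came from 3 joins, of which the join shown above gave 91. It was present in every library, as was MRYSSYWYFDV, with 2, 1, 4, 11, 5 and 1 copies in the same order. MRYGGYWYFDV had 0, 4, 11, 17, 3 and 3 copies, 38 in total from 4 joins, with 1 base at each junction of its main join. MRYGNYWYFDV had 1, 3, 7, 11, 4 and 0 copies, 26 in total from 3 joins, 16 of them from its main join.

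The other 6 of the 10 had 6 to 18 copies and were each found in 3 to 5 libraries. MRYNSNYWYFDV (18 copies), MRYDSNYWYFDV (8) and MRYNSNHWYFDV (8) have an additional codon made with 2 bases between V and D. MRYGSSYWYFDV (11), ILYGSSYWYFDV (7) and MRYGNYYWYFDV (6) have longer D parts. The 5 µg library, the largest, held the most copies of each of the first 6 forms.

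**Figure D4:**
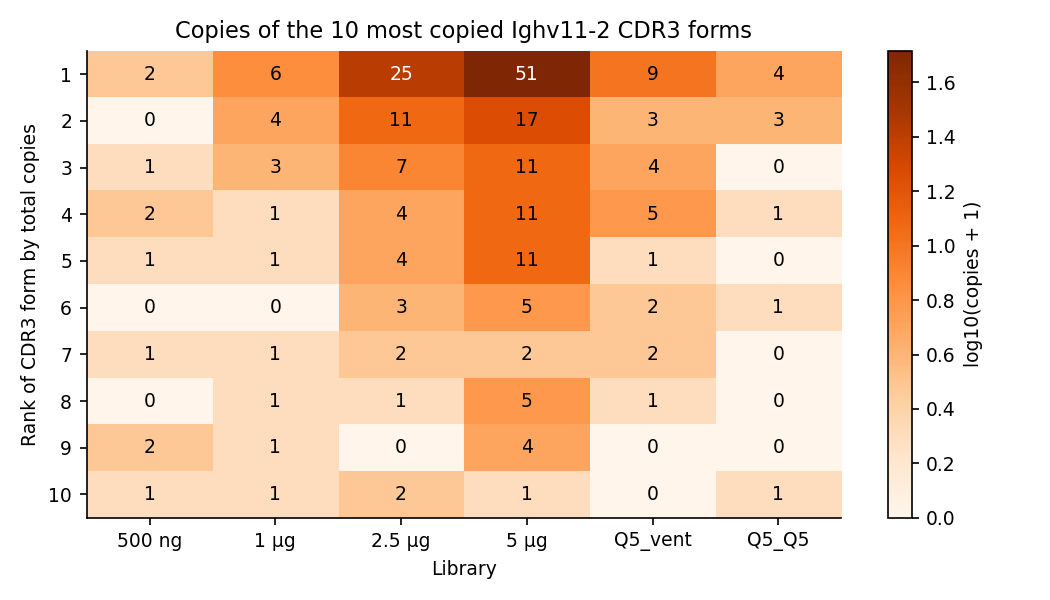
Copies of the 10 most copied productive Ighv11-2 CDR3 forms (vertical axis, rank 1 to 10 in the order of the joins listed above) in the 6 libraries, with colour on a log10(copies + 1) scale. The form of rank 1 has 51 copies in the 5 µg library and 2 in the 500 ng library, and ranks 1 and 4 are present in every library.

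The percentage of productive Ighv11-2 sequences in a form seen 2 or more times within its library was 40.0%, 48.5%, 68.1% and 68.3% along the input series, 69.4% in Q5_vent and 46.7% in Q5_Q5. The libraries with the fewest productive Ighv11-2 sequences, 15 at 500 ng, 33 at 1 µg and 15 in Q5_Q5, had the lower values. The mean was 56.8% ± 13.2, against 1.98% ± 0.838 for other V genes, a difference of +54.9 ± 12.7 points (higher in 6 of 6, exact sign-flip permutation test, p = 0.03125, adjusted 0.0375). Of the 96 V genes, 6.25% were higher than the rest in all 6 libraries. With 1 count per join in each library, which leaves only forms made by different joins, the difference was 12.9 points and no longer passed (adjusted p = 0.0833, same exact test). Requiring 3 copies gave 46.0 points (adjusted p = 0.075, exact test).

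Pooled over libraries, 64.6% of productive Ighv11-2 sequences were in forms repeated within a library, the highest of the 96 genes. Ighv12-3 had 57.6%, Ighv1-36 29.4%, Ighv5-15 23.4% and Ighv5-6-4 6.13%, against a median over genes of 2.06%. Ighv11-2 and Ighv12-3 stood apart from the other genes in both short junctions and repeats, while Ighv1-36 and Ighv5-15, with many repeats, had a mean of 7.0 and 6.96 bases between segments.

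**Figure D5:**
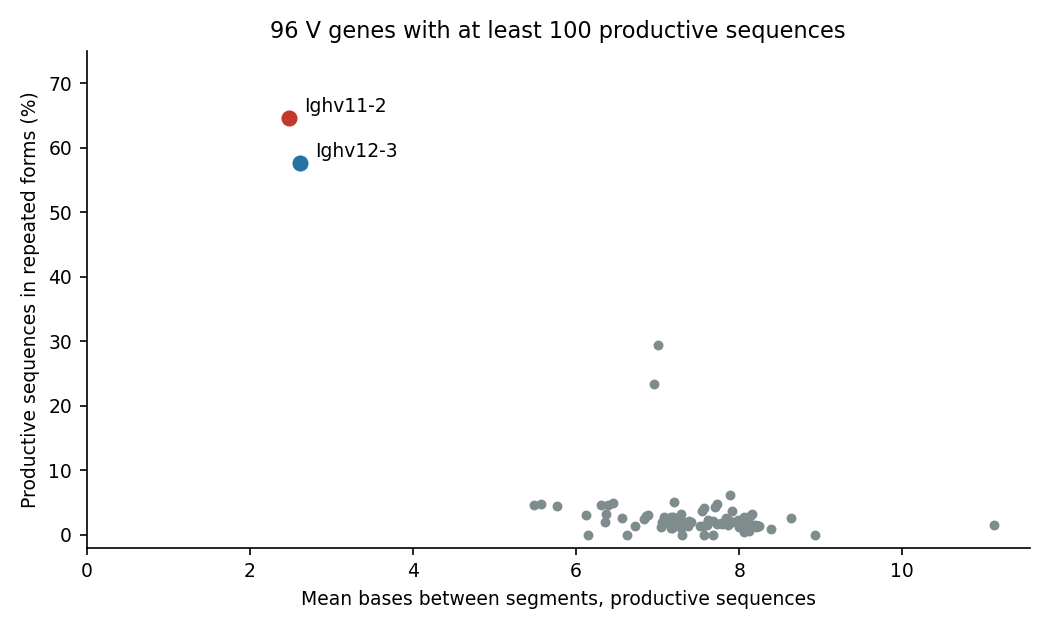
Mean bases between segments (x axis) against the percentage of productive sequences in CDR3 forms repeated within a library (y axis), 1 point for each of 96 V genes, 6 libraries together. Ighv11-2 (2.49 bases, 64.6%) and Ighv12-3 (2.62 bases, 57.6%) lie away from the other genes.

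Sharing between libraries followed the same joins. Joins found in 2 or more libraries numbered 18 of the 131 productive Ighv11-2 joins; all 18 used Ighj1, and they held 253 of the 373 sequences (67.8%). The corresponding share was 2.80% for out-of-frame Ighv11-2 sequences (14 sequences) and 2.23% for productive sequences of other V genes. For productive Ighv12-3 alone it was 64.5% (300 of 465 sequences), near that of Ighv11-2. The 18 shared joins had 2.39 bases between segments on average, and the 113 joins of 1 library had 5.74. Of the 15 joins with no base between segments, 7 were in 2 or more libraries. The shared joins were selected for being shared, and no test was made of these values.

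The most copied out-of-frame Ighv11-2 join was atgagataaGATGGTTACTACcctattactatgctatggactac, shown with D bases in capitals because no other out-of-frame join of the gene had more than 2 copies. It joins Ighd2-3 to Ighj4 in a CDR3 of 44 bases with 4 bases between segments, and had 8 copies in 4 libraries. It gave 8 of the 14 out-of-frame sequences in joins of 2 or more libraries.

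The copies of a form carried different tags. Each sequence name carries a 12-base molecular identifier. No combination of join, identifier and anchor (the part of the adapter read) was repeated within a library. No combination of join and identifier was found in 2 or more libraries (0 in both cases). The 97 copies of MRYSNYWYFDV had 97 different combinations of identifier and V length. The deposited sequences were already deduplicated, which may have fixed the values within a library beforehand. Those values therefore do not show that the copies were separate molecules. Among 872 pairs of copies with the same join and anchor in a library, 7 pairs had identifiers that differed by 1 base. Counting such copies 1 time removed 4 Ighv11-2 sequences and 3 Ighv11-1 sequences, and the difference in repeated forms was then 55.5 points (adjusted p = 0.0375, exact permutation test). Copies from cells of 1 clone and copies from separate joins of the same sequence cannot be told apart.

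V mismatches were few in both classes. At least 1 mismatch to the called V gene was present in 40 of 373 productive Ighv11-2 sequences (10.7%, Wilson interval 7.97 to 14.3) and in 40 of 500 out-of-frame ones (8.0%, 5.93 to 10.7), and these intervals overlap. Before the CDR3, where junction editing does not reach, mismatches were present in 26 productive (6.97%, 4.80 to 10.02) and 27 out-of-frame sequences (5.40%, 3.74 to 7.74). The last base of the second CDR3 codon, at the trimmed V end, differed in 13 productive and 6 out-of-frame sequences. Productive sequences of other V genes had a mismatch in 6.30% and out-of-frame ones in 11.5%. Aligned V length differed between the Ighv11-2 classes, with a median of 204 bases in productive and 154 in out-of-frame sequences, and its part in these values was not tested. The median number of reads per sequence was 9 in both classes. A primer tag was unclear in 2.95% of productive and 16.4% of out-of-frame Ighv11-2 sequences, against 9.35% and 18.1% with other V genes.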

How the data were processed

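Each deposited file holds 1 deduplicated VDJ-seq sequence per line for 1 library. Per the submitters' processing notes, Trim Galore 0.4.4 and Bowtie2 2.3.2 were used with the mm10 build; parameters and the segment caller's version were not given in the sources used here. The authors deposited segment calls, a CDR3, productive and frame flags and lengths in bases, and V identity as a fraction of matching bases. Read numbers were inferred from the sequence names (3 or more everywhere).

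Sequences were grouped by first V call; 5.48% of Ighv11 calls named both members, against 11.3% of other calls naming several genes. A join is the V gene, J gene and CDR3 bases. Bases between segments are the sum of the 2 deposited junction lengths. "Other V genes" leaves out Ighv11.

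Contrasts within libraries were tested over 6 libraries with equal weight by an exact two-sided sign-flip permutation test, with Benjamini-Hochberg adjustment over 12 contrasts and a threshold of 0.05; the test was checked on simulated data. Input and polymerase groups hold 1 library each and carry Katz intervals only. Intervals cover counting error only. They treat every copy of a join as independent, so that those of productive Ighv11-2 may be too narrow. Members, contrasts and gene lists were chosen with earlier results of these data known. Named forms are the 10 most copied of Ighv11-2 with 2 or more copies and up to 5 of Ighv11-1; other V genes are named by rank (up to 5) or likeness (3). Named D genes, V mismatches, the sharing of joins and the collapse of near-identical identifiers were chosen after their values were seen. Values were computed with pandas 2.3.3, SciPy 1.17.1 and NumPy 2.4.6 under Python 3.11.15, and plots with matplotlib 3.10.9.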

Additional observations from a re-analysis of the deposited data

How the results depend on the processing

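Of 185 values recomputed under alternative settings, 174 kept their direction and their side of the threshold or moved within their error. The alternatives were 1 count per join, calls of a single gene, reads of 5 or more, other classes and minimums, unclear primer tags left out, counts pooled over libraries, 1 µg as the low input, the input libraries alone, leaving out the most copied form or each library in turn, and identifiers 1 base apart counted 1 time, which was chosen after seeing the data. The exceptions follow, with adjusted p from the exact permutation test. With 1 count per join, the DSP2 difference between productive and out-of-frame Ighv11-2 turned to -3.28 points (0.594), DSP2 against other V genes was 3.91 (0.409) and repeated forms were 12.9 (0.0833). With reads of 5 or more, DSP2 against other V genes was 10.1 (0.075). Without the most copied form the DSP2 differences turned to -10.7 (0.0375) and -3.55 (0.531). The main join of that form has a DSP2 call, so that a fall was fixed beforehand. With 3 copies required, repeated forms were 46.0 (0.075). The Ighj1 difference of out-of-frame Ighv11-2 from other V genes, not past the threshold, turned to -0.325 with all sequences that were not productive and to -0.254 in the 4 input libraries. The Q5_Q5 over Q5_vent ratio of Ighv11-2 was 0.531 among productive and 1.65 among out-of-frame sequences. The cause of these changes was not tested. A ratio for productive Ighv11-1 could not be given, with 0 sequences in a library. With 5 libraries the smallest p is 0.0625, so that leaving a library out was judged on direction and the values alone; no direction changed, and the DSP2 difference between classes, which did not pass the test, ranged from 2.36 to 6.91.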
